A study of Mus musculus with 21 samples.

Results

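The body of the Satb1 gene and the flank downstream of it were examined on mouse chromosome 17 (mm9) from position 51703000 to position 51968000, a stretch of 265 kb. The members were all positions of the deposited 4C profiles inside these limits, at the 5 kb smoothing window. They numbered 266 of the 1296 filled positions of each of the 7 Satb1 libraries, against 14666 filled positions in all 21 libraries of the series. The limits come from coordinates and not from the measured signal.

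The study applied 4C-seq with 2 successive restriction digests to viewpoints at 4 mouse loci, and the Satb1 locus was covered from 4 viewpoints. Since every group was a single library, all values are descriptions of these libraries, with neither tests nor p-values. Thymus was taken from adult C57BL/6 mice, with 1 thymus per preparation, and was read from a viewpoint labelled +1.5 kb of the Satb1 promoter (NlaIII then Csp6I), from one labelled -6 kb (DpnII then Csp6I), from the Satb1 promoter (NlaIII then DpnII) and from a site labelled -470 kb (DpnII then Csp6I). Embryonic stem (ES) cells of the IB10/E14 line were read from the promoter and from the -470 kb site, and pooled brains of C57BL/6 fetuses at 14.5 days post coitum were read from the promoter, with the same enzymes as the thymus libraries of these viewpoints. No treatment or engineered allele is named in the labels of these groups, and the sources used here do not say whether the 4 thymus libraries share a preparation.

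4C-seq counts how often fragments across a chromosome are ligated to 1 chosen fragment, the viewpoint, in fixed nuclei, and the signal normally decays with distance from that fragment. Satb1 encodes a nuclear protein that binds AT-rich DNA and organizes chromatin loops, and it is highly expressed in thymocytes, where it is needed for T cell development. The gene lies on the minus strand, so its 5' end is at the higher coordinate and the downstream flank at the lower ones. In the RefSeq gene table (GRCm38, used for names and order only) the lncRNA gene Gm31143 is the next gene on the downstream side. It is followed by the pseudogene Gm46574, the lncRNA gene C330011F03Rik, the pseudogene Gm25177, the lncRNA genes Gm31083 and Gm41598, and then Tbc1d5, which encodes a Rab GTPase-activating protein. On the upstream side 5 noncoding genes and pseudogenes separate Satb1 from Kcnh8, which encodes a voltage-gated potassium channel.

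Fragment ends decide where 4C can report a contact, and RefSeq lists 5 promoter windows of 300 bases for Satb1, all on the minus strand of chromosome 17 (GRCm38.p6). Shown are the outermost start, on the side of the promoter viewpoints, and 2 starts inside the gene, 6.70 kb and 21.1 kb further in. Capitals mark the recognition sites of the enzymes used: CATG (NlaIII), GATC (DpnII) and GTAC (Csp6I), each of which reads the same on both strands.
Satb1 start at chr17:51833241-51833540: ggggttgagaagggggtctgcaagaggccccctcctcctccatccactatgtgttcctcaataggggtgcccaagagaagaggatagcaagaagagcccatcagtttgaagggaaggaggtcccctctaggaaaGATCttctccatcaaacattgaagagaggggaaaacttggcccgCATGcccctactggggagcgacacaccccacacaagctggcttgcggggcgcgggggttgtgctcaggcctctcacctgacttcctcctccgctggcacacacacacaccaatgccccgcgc
Satb1 start at chr17:51826539-51826838: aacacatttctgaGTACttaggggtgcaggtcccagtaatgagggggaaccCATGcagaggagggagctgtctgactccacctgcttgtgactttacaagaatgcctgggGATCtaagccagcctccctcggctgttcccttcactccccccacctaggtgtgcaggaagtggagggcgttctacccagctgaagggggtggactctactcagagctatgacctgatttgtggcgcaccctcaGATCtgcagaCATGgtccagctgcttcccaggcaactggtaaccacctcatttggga
Satb1 start at chr17:51812135-51812434: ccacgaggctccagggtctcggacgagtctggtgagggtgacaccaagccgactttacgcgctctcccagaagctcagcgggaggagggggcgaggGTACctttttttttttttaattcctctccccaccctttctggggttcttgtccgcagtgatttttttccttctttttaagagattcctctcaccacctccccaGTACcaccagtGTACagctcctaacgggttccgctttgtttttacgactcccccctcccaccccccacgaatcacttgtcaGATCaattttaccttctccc

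The outermost window held 1 NlaIII site, 1 DpnII site and no Csp6I site. The second held 2 NlaIII sites, 2 DpnII sites and 1 Csp6I site, and the third held 1 DpnII site and 3 Csp6I sites but no NlaIII site. Among the 5 Satb1 windows, 2 held an NlaIII site, 5 a DpnII site and 3 a Csp6I site, against 61.1%, 47.97% and 35.8% of all 32851 promoter windows in the same table. The windows at 51812135-51812434 and 51812005-51812304 overlap and share 1 DpnII site and 2 Csp6I sites, so they do not count as separate. These coordinates are not those of the 4C profiles, which are in mm9, and no position was converted between builds. The sources used here do not say which window holds a viewpoint fragment.

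The 4C values were analysed as relative signal, the middle value of the 5 kb window over the mean of the same library at distances above 10 kb, so that 1 is the library's average. The stretch was read in 4 segments. The 5' part of the gene ran from 51.920 to 51.968 Mb, the 3' part from 51.875 to 51.920 Mb, the near flank from 51.789 to 51.875 Mb and the far flank from 51.703 to 51.789 Mb. The promoter viewpoint lay at 51.974 Mb, so the stretch began 6 kb from it, the 3' end of the gene was 99 kb away and the far edge 271 kb away. The +1.5 kb viewpoint lay 3.5 kb nearer to the gene and the -6 kb viewpoint 3 kb further off, while the -470 kb viewpoint was 452 kb from the near edge. The read depth behind the values is unknown, so they carry no counting interval. Positions 51.857 and 51.858 Mb were empty (below 1e-09) in all 7 libraries and 51.739 Mb in 6 of them. Neighbouring positions share smoothing windows and are not independent.

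From the promoter, the gene body and its flank were lowest in thymus, relative to each library's mean. Its 5' part averaged 1.82 times the library mean in thymus, 8.28 times in ES cells and 5.34 times in fetal brain. The 3' part averaged 0.238 in thymus, 2.04 in ES cells and 2.09 in fetal brain, so in thymus this segment lay below the library mean and in the other samples above it. The near flank averaged 0.204 in thymus, 1.16 in ES cells and 0.940 in fetal brain, and the far flank 0.156 in thymus, 0.739 in ES cells and 0.845 in fetal brain. Thymus was the lowest of the 3 samples in all 4 segments, while ES cells and fetal brain changed places along the stretch. In bulk tissue, fewer cells with a contact and a weaker contact per cell cannot be told apart.

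The mean lower and higher window values around these averages were wide. In the 5' part of the gene they were 0.152 and 8.31 in thymus, 3.05 and 18.8 in ES cells, and 2.48 and 10.8 in fetal brain. In the far flank they were 0.0642 and 0.293 in thymus, 0.0854 and 3.26 in ES cells, and 0.234 and 2.17 in fetal brain. The spans of thymus and of the other samples thus overlapped in both segments, and the sources used here do not say which quantiles the outer values stand for.

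The whole stretch held 9.56% of the promoter library's signal beyond 10 kb in thymus, 48.6% in ES cells and 37.8% in fetal brain, on 20.5% of the positions. In thymus it therefore carried less than an even share and in the other samples more. Within the stretch the split was more alike: the gene body took 74.5% of the stretch's signal in thymus, 73.7% in ES cells and 68.2% in fetal brain. Much of the thymus signal of the flank was a single recurring value, 0.152 times the library mean. In the flank 76.7% of thymus positions were at or below the library's commonest value, against 13.4% in ES cells and 2.33% in fetal brain, and positions at that value have no order among themselves. The 3' part of the gene also held a recurring thymus value, 0.230, which was the median of that segment and of the whole library. Thymus bins at 0.230 likewise have no order among themselves.

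**Figure D1:**
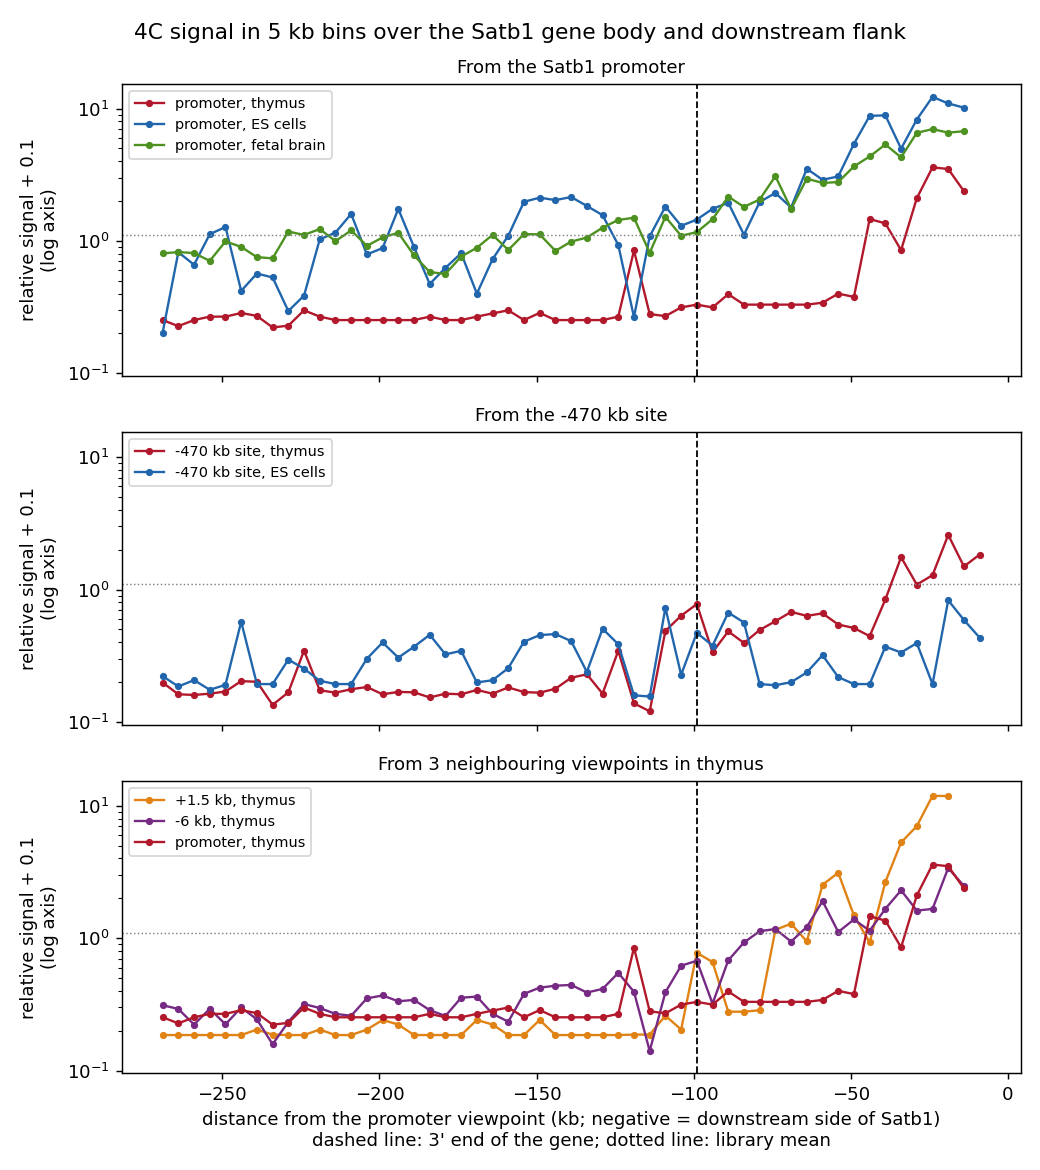
Relative 4C signal plus 0.1 (log axis) in 5 kb bins against the distance from the promoter viewpoint in kb, with 1 line per library; the dashed line is the 3' end of the gene at 99 kb and the dotted line the library mean. The promoter line of thymus lies below those of ES cells and fetal brain in nearly every bin and is flat over most of the flank, and the thymus line from the -470 kb site lies above the ES line over most of the gene and mostly below it in the flank.

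In bins of 5 kb, the promoter signal of the stretch was lower in thymus than in either of the other samples, with ratios taken on the log2 scale of relative signal plus 0.1. Thymus over ES cells had a mean log2 ratio of -1.98 over 52 bins, and 45 of them were more than 2-fold lower in thymus. Over all 254 bins of the locus 19.7% were lower past 2-fold, so the share inside the stretch, 86.5%, was well above this background. In thymus over ES cells 1 bin was more than 2-fold higher, against 19.7% of all bins. All 18 bins of the gene were lower in thymus past 2-fold, with a mean of -2.50, and 27 of 34 in the flank, with a mean of -1.70.

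How far a fold of 2 separates libraries is limited by the only technical pair of the series. In the Hba-a1 promoter of fetal liver, the library from 1/16 of the template over that from full template had a mean log2 ratio of 1.33 (SD 0.86 over 63 bins), and 68.3% of its bins were past 2-fold. That pair comes from another viewpoint and another tissue, and a bin past 2-fold is therefore a description of 2 libraries and no measure of a difference between tissues.

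The largest thymus-over-ES difference was in the gene, at the bin around 51.925 Mb in its 5' part, with 0.278 in thymus and 5.31 in ES cells (log2 -3.84). The next were around 51.910 Mb in the 3' part, with 0.230 in thymus and 3.41 in ES cells (-3.41), and around 51.835 Mb in the near flank, with 0.152 in thymus and 2.04 in ES cells (-3.09). The 1 higher bin lay around 51.855 Mb, with 0.747 in thymus and 0.166 in ES cells (1.67). This bin adjoins the positions that were empty in all 7 libraries, and fetal brain had 1.40 there, above thymus. It was no longer past 2-fold with the 10 kb or 20 kb windows, the higher window value or bins of 10 kb.

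Thymus over fetal brain had a mean of -1.97 over 52 bins, from the same thymus library. More than 2-fold lower in thymus were 49 bins, or 94.2%, against 32.3% of all bins of the locus. None was more than 2-fold higher, against 9.45% of all bins. The largest differences were in the gene around 51.925 Mb, with 0.278 in thymus and 3.55 in fetal brain (log2 -3.27), around 51.900 Mb, with 0.230 in thymus and 2.98 in fetal brain (-3.22), and around 51.910 Mb, with 0.230 in thymus and 2.85 in fetal brain (-3.16). The bins around 51.900 and 51.910 Mb hold the recurring thymus value of the 3' part, so their order comes from fetal brain. The 3 bins within 2-fold included the pair around 51.950 and 51.955 Mb near the 5' end of the gene, and the bin around 51.855 Mb.

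On this scale thymus could not be low over the whole locus, since each library is divided by its own mean. Outside the stretch, 202 bins of thymus over ES cells had a mean log2 ratio of 0.79, and those of thymus over fetal brain -0.09. The stretch lay 2.77 below the rest of the locus in thymus over ES cells and 1.89 below it in thymus over fetal brain. Because each library is scaled to its own mean, a high signal elsewhere lowers the relative signal here. Without that scaling the mean of the stretch was -1.27 for thymus over ES cells and -3.28 for thymus over fetal brain, lower in thymus both times. No unscaled mean was computed for the rest of the locus. In the unscaled setting 0.1 of each library's own mean was added, so all bins of a comparison shift by the same amount. The contrast of the stretch with the rest is therefore the same with and without scaling, and leaving out the scaling is no check on it. With the lower window value, the thymus-over-ES mean was -0.78 and that of the 3' part of the gene -0.02.

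Between ES cells and fetal brain the bins of the stretch scattered around a ratio of 1 from the promoter. The mean log2 ratio, ES cells over brain, was 0.00 (SD 0.79 over 52 bins), with 6 bins more than 2-fold lower against a background of 33.9%, and 3 more than 2-fold higher against 3.15%. In the 5' part of the gene all 9 bins were above 0, with a mean of 0.57, and in the far flank the mean was -0.36. The lowest ratios were around 51.855 Mb, with 0.166 in ES cells and 1.40 in fetal brain (-2.49), around 51.745 Mb, with 0.195 in ES cells and 1.08 in fetal brain (-1.99), and around 51.705 Mb, with 0.103 in ES cells and 0.705 in fetal brain (-1.99). The highest were around 51.830 Mb, with 1.93 in ES cells and 0.741 in fetal brain (1.27), and around 51.930 Mb, with 8.70 in ES cells and 4.24 in fetal brain (1.02). This depended on scaling: with the deposited signal left unscaled the ES-over-brain mean was -2.01.

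**Figure D2:**
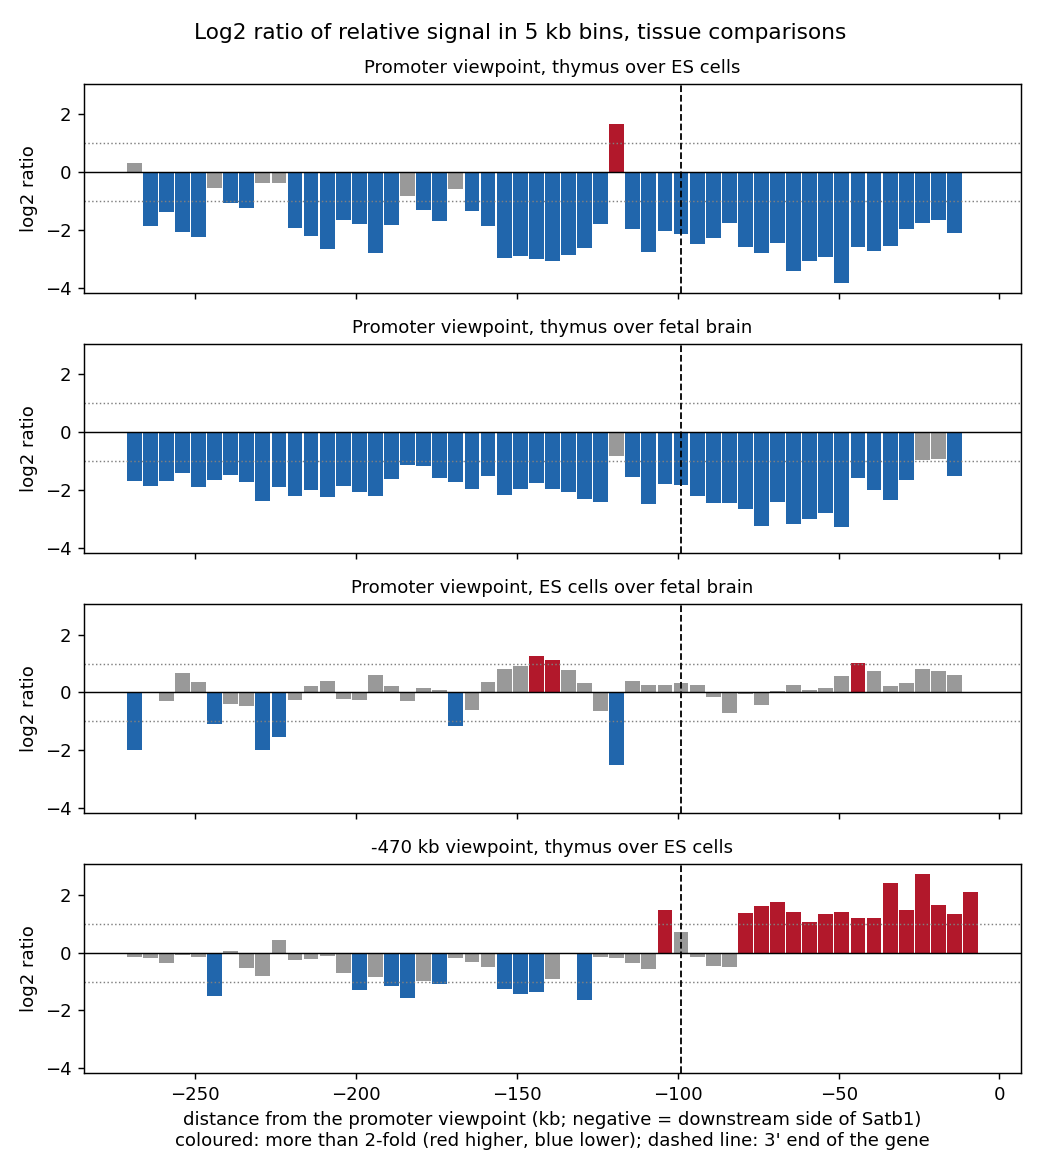
Log2 ratio of relative signal plus 0.1 per 5 kb bin against the distance from the promoter viewpoint in kb, for the 4 comparisons between tissues; red bars are more than 2-fold higher, blue bars more than 2-fold lower, and the dashed line marks the 3' end of the gene. The 2 promoter comparisons with thymus are blue in 45 and 49 of 52 bins, whereas from the -470 kb site 15 of 19 bins of the gene are red.

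The decay with distance was set aside by dividing each segment by the signal expected at its distance (O/E), from a monotone decay fitted to both sides of the viewpoint in the same library, with 0.1 added to both. From the promoter in thymus, O/E was 0.305 in the 5' part of the gene, 0.162 in the 3' part, 0.350 in the near flank and 0.306 in the far flank. In ES cells the same segments stood at 1.07, 0.796, 1.10 and 1.37, and in fetal brain at 1.00, 1.05, 0.914 and 1.05. The 4 segment means were thus below expectation in thymus, lowest in the 3' part of the gene, and nearer to it in the other samples. Single positions differed from their segment, and the thymus maximum at 51.856 Mb in the near flank stood at an O/E of 2.47. A low O/E on one side has its counterpart in a high one on the other, since both sides set the expected decay.

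Equal distances on the upstream side gave a comparison without a fitted curve. In thymus the 5' part of the gene averaged 1.82 and its upstream mirror image 10.5, and the 3' part averaged 0.238 and its mirror image 3.73, a fold of 0.0639. The near flank stood at 0.171 of its mirror image and the far flank at 0.174. In ES cells the segments stood at 1.15, 0.670, 1.32 and 2.08 of their mirror images, from the 5' part of the gene outwards. In fetal brain they stood at 1.00, 1.13, 0.857 and 1.07. The 3' part of the gene had the lowest fold of the 4 segments in thymus and in ES cells, but not in fetal brain.

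From the -470 kb site, the order of thymus and ES cells in the gene was the opposite. The 5' part of the gene averaged 1.21 in thymus and 0.284 in ES cells, and the 3' part 0.431 in thymus and 0.245 in ES cells. The near flank averaged 0.144 in thymus and 0.247 in ES cells, and the far flank 0.0822 in thymus and 0.167 in ES cells. On this scale thymus was therefore higher within the gene and lower downstream of it. The flank difference depended on scaling: with the deposited signal left unscaled, the mean log2 ratio of thymus over ES cells was -0.06 in the near flank, against -0.66 with scaling, and 0.13 in the far flank, against -0.47.

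Over the 19 bins of the gene, the mean log2 ratio of thymus over ES cells from the -470 kb site was 1.24. In 15 of them thymus was more than 2-fold higher, among 16 such bins in the stretch (30.2%), against 16.9% of all bins of the locus. More than 2-fold lower were 9 bins of the stretch, all in the flank, against a background of 13.8%. The 5' part of the gene had 10 of 10 bins past 2-fold and a mean of 1.68, the 3' part 5 of 9 bins and a mean of 0.75, and the flank a mean of -0.56. The whole stretch averaged 0.08, so on this scale its mean hid opposite signs in the gene and the flank.

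The largest -470 kb ratio was around 51.950 Mb, with 1.18 in thymus and 0.0932 in ES cells (log2 2.73). It was followed by the bins around 51.940 Mb, with 1.65 in thymus and 0.234 in ES cells (2.39), and around 51.965 Mb, with 1.74 in thymus and 0.333 in ES cells (2.09). All of these are in the 5' part of the gene. The lowest ratios were around 51.845 Mb, with 0.0636 in thymus and 0.406 in ES cells (-1.63), around 51.790 Mb, with 0.0531 in thymus and 0.355 in ES cells (-1.57), and around 51.730 Mb, with 0.103 in thymus and 0.472 in ES cells (-1.49). The ES value around 51.950 Mb is the commonest value of that library. The thymus values around 51.845 and 51.790 Mb are close to or below the commonest thymus value, 0.0635. The sizes of these ratios therefore lean on the 0.1 added.

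The thymus signal from the -470 kb site was also much higher on average in the gene than in the flank, which the ES signal was not in these libraries. The gene averaged 7.40 times the flank in thymus and 1.28 times in ES cells. The 3' part of the gene stood 3.00-fold over the near flank in thymus and 0.989-fold in ES cells. The thymus drop did not fall at the gene end: bins around 51.870 and 51.865 Mb still had 0.534 and 0.387, and that around 51.860 Mb had 0.0203. ES cells fell from 0.627 to 0.0556 between the bins around 51.865 and 51.860 Mb. The latter bin holds positions that were empty in several libraries, so the drop cannot be told apart from this gap. In the ES library 48.5% of the stretch was at or below the commonest value, and in the thymus library 44.7%. The thymus positions at that level were concentrated in the flank, where they made up 68.0%, against 2.13% of the gene. In ES cells they made up 49.4% of the flank and 46.8% of the gene.

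Seen from the -470 kb site, O/E in the 5' part of the gene was 2.26 in thymus and 1.22 in ES cells, and in the 3' part 1.55 in thymus and 1.19 in ES cells. The upstream side of this viewpoint reaches 577 kb in the files, and the 3' end of the gene is 545 kb away. Most of the flank lies beyond that reach, so its expected signal comes from the flank itself and no O/E is given for it. With O/E in place of relative signal, 9 bins of the stretch were more than 2-fold higher in thymus.

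**Figure D3:**
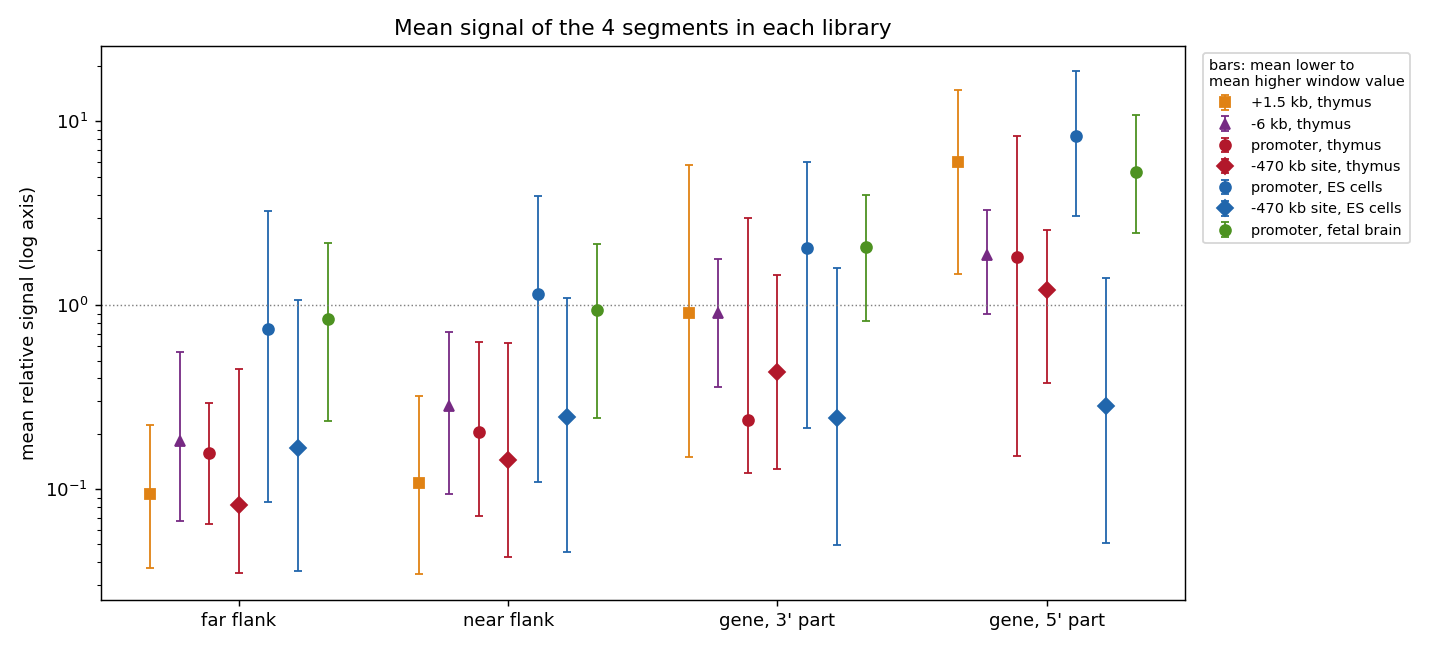
Mean relative signal (log axis) of the 4 segments in each of the 7 libraries, with bars from the mean lower to the mean higher window value and a dotted line at the library mean. From the promoter thymus lies lowest in each segment, at 1.82 in the 5' part of the gene against 8.28 in ES cells, and from the -470 kb site thymus lies above ES cells in the gene, at 1.21 against 0.284 in the 5' part.

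Neighbouring viewpoints in thymus had more relative signal in the 3' part of the gene than the promoter viewpoint. The 5' part of the gene averaged 6.03 from +1.5 kb and 1.87 from -6 kb, against 1.82 from the promoter. With 10 kb left out around each viewpoint, these means cover 41, 47 and 44 positions. On the bins shared with the promoter library, the 5' means were 5.42 from +1.5 kb against 1.60, and 1.76 from -6 kb against 1.68. The 3' part averaged 0.902 from +1.5 kb and 0.911 from -6 kb, against 0.238 from the promoter, where the median was the recurring value of 0.230. In the 3' part both neighbours thus had means close to each other and above that of the promoter library, although single bins differed between them, as at 51.895 Mb with 0.185 from +1.5 kb and 1.03 from -6 kb. In the 5' part +1.5 kb stood above the promoter library, and -6 kb was near it on this scale. The 5' mean log2 ratio of -6 kb over the promoter was 0.36, but 1.32 with O/E, 1.09 with the lower window value and 2.83 without scaling. Each of these viewpoints was read with its own enzyme pair, so viewpoint and enzymes cannot be told apart.

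The flank was low from all 3 of these thymus viewpoints. The near flank averaged 0.108 from +1.5 kb and 0.284 from -6 kb, against 0.204 from the promoter, and the far flank 0.0941 from +1.5 kb and 0.183 from -6 kb, against 0.156 from the promoter. These thymus levels were all at or below 0.284 times the library mean. The libraries of neighbouring viewpoints analysed here are all from thymus, so the same cannot be set out for ES cells or fetal brain. In the flank 84.9% of positions from +1.5 kb and 7.56% from -6 kb were at or below the library's commonest value, against 76.7% from the promoter, so the fill of the profiles differed.

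Set against the promoter library bin by bin, +1.5 kb had a mean log2 ratio of 0.13 over 51 bins. More than 2-fold higher were 12 bins, or 23.5%, against 12.6% of all bins, and every one of them was in the gene, whose mean was 1.33. With the lower window value the mean of the 3' part was 0.17, against 1.06 with the middle value. More than 2-fold lower was 1 bin, the one around 51.855 Mb, against 10.3% of all bins, and the flank mean was -0.47. The largest ratios were around 51.920 Mb, with 3.02 from +1.5 kb and 0.300 from the promoter (2.96), around 51.940 Mb, with 5.18 from +1.5 kb and 0.752 from the promoter (2.63), and around 51.905 Mb, with 1.19 from +1.5 kb and 0.230 from the promoter (1.96).

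From -6 kb the mean log2 ratio over the promoter library was 0.45 over 52 bins. There were 11 bins more than 2-fold higher, or 21.2%, below the background of 28%, and 2 more than 2-fold lower, against 4.72% of all bins. Of the 11 higher bins 10 were in the gene, 7 of them in its 3' part, where the mean was 1.42. That mean was 0.80 with the 2 kb window, 0.24 with the lower and 0.50 with the higher window value, and 3.90 without scaling. The largest ratios were around 51.915 Mb, with 1.81 from -6 kb and 0.241 from the promoter (2.48), around 51.925 Mb, with 1.28 from -6 kb and 0.278 from the promoter (1.87), and around 51.900 Mb, with 1.07 from -6 kb and 0.230 from the promoter (1.83). The 2 lower bins were around 51.950 Mb, with 1.56 from -6 kb and 3.49 from the promoter (-1.11), and around 51.855 Mb, with 0.293 from -6 kb and 0.747 from the promoter (-1.11). Both neighbour comparisons share the promoter library of thymus with the tissue comparisons, so their ratios are not independent of them.

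Against equal upstream distances, the gene was closer to balance from +1.5 kb than from the promoter. Its 5' part stood at 2.23 of its mirror image from +1.5 kb and 0.423 from -6 kb, against 0.173 from the promoter. The 3' part stood at 0.202 from +1.5 kb and 0.364 from -6 kb, against 0.0639 from the promoter. The whole flank stood at 0.106 from +1.5 kb and 0.136 from -6 kb, against 0.172 from the promoter. The flank was thus below its mirror image from each of these viewpoints, while the 5' part of the gene was above it from +1.5 kb and below it from the others.

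**Figure D4:**
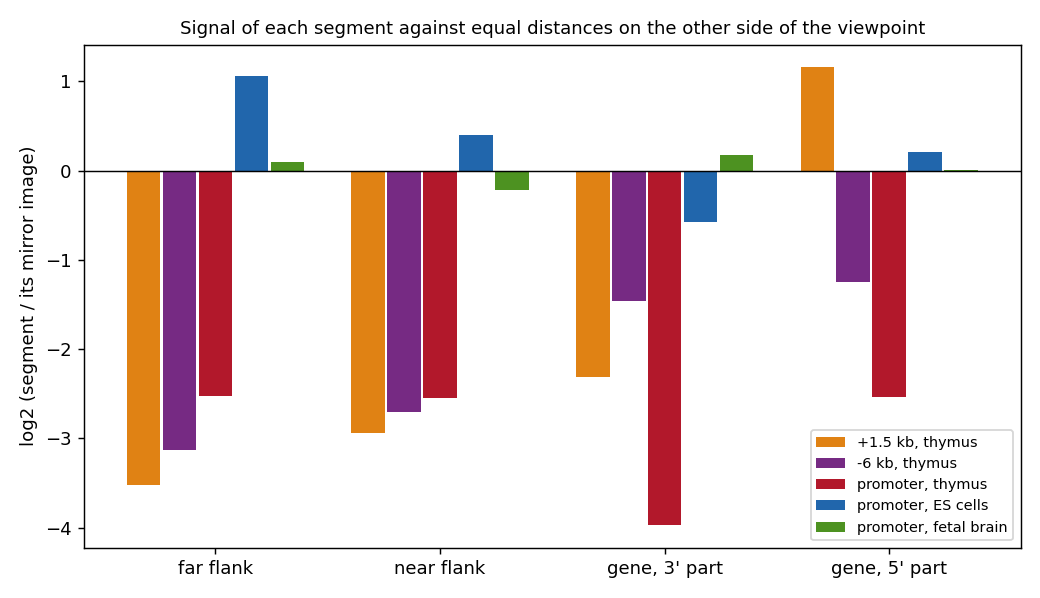
Log2 ratio of the mean signal of each segment to the mean at equal distances on the upstream side of the viewpoint, as bars for 5 libraries. All bars of the 3 thymus libraries are below 0 except the 5' part of the gene from +1.5 kb, at 1.15, whereas fetal brain stays between -0.22 and 0.17.

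The fold of the 3' part over the near flank compares means of whole segments and does not place a step at the gene end. Between the bins around 51.875 and 51.870 Mb the signal went from 0.675 to 0.104 from +1.5 kb and from 0.575 to 0.519 from -6 kb. From the promoter it went from 0.230 to 0.215 in thymus, 1.35 to 1.20 in ES cells and 1.07 to 0.993 in fetal brain. The fold of the segment means was 8.34 from +1.5 kb and 3.21 from -6 kb, against 1.17 from the promoter in thymus, 1.76 in ES cells and 2.22 in fetal brain. The fitted decay alone gave 2.67 from +1.5 kb and 1.50 from -6 kb, against 2.59 from the promoter in thymus, 2.48 in ES cells and 1.90 in fetal brain. The observed fold exceeded that of the decay from +1.5 kb, from -6 kb and in fetal brain, and was below it from the promoter in thymus and ES cells. Between the parts of the gene, the fold of the 5' over the 3' part was 6.68 from +1.5 kb (1.83 from the decay) and 2.06 from -6 kb (1.82), against 7.64 from the promoter in thymus (3.11). It was 4.06 in ES cells (2.99) and 2.56 in fetal brain (2.71). From the promoter in thymus and in ES cells this inner fold exceeded that of the decay. The fold of the 3' part over the near flank did not, and from +1.5 kb both did. In the promoter library of thymus the 3' part averaged only 0.238, and 67.4% of near-flank positions were at or below the commonest value, 0.152. A fold of the 3' part over the near flank as large as the decay gave could therefore hardly appear in that library.

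How far contacts above the library mean reached along the stretch also differed. The furthest position at or above the mean was 51.855 Mb from the promoter in thymus, 51.710 Mb in ES cells and 51.727 Mb in fetal brain. It was 51.880 Mb from +1.5 kb, 51.892 Mb from -6 kb, 51.872 Mb from the -470 kb site in thymus and 51.887 Mb from that site in ES cells. At or above the mean were 11.1% of the positions from the promoter in thymus, 63.6% in ES cells and 55.2% in fetal brain. From +1.5 kb the share was 19.8%, from -6 kb 23.5%, and from the -470 kb site 11.7% in thymus and 1.88% in ES cells. In the promoter library of thymus the furthest such position belongs to the peak beside the empty positions, and the other thymus libraries had none at coordinates below 51.872 Mb.

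Local maxima were concentrated in the gene. Of the 21 maxima named, 3 per library and at least 20 kb apart, 19 were in the gene, 1 in the near flank and 1 in the far flank. Every library had one between 51.948 and 51.958 Mb in the 5' part of the gene, within 10 kb of those of the other 6. For the promoter and its neighbours this position is near the viewpoint, where the signal is high in any case, but from the -470 kb site it is 465 kb away in thymus and 462 kb in ES cells.

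At this shared maximum the relative signal from the promoter was 5.09 in thymus at 51.952 Mb, 15.2 in ES cells at 51.958 Mb and 7.77 in fetal brain at 51.948 Mb. From +1.5 kb it was 15.2 at 51.951 Mb and from -6 kb 4.03 at 51.955 Mb. From the -470 kb site it was 3.15 in thymus at 51.955 Mb and 1.20 in ES cells at 51.958 Mb. The -470 kb values stood at an O/E of 4.74 in thymus and 3.44 in ES cells, whereas from the promoter O/E was 0.798 in thymus, 1.47 in ES cells and 1.13 in fetal brain. The lower window value at this position was 0.152 from the promoter in thymus, the library's commonest value, and 0.0932 from the -470 kb site in ES cells.

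The other maxima inside the gene were scattered. From the promoter they lay at 51.931 Mb in thymus with a relative signal of 1.82, at 51.933 and 51.913 Mb in ES cells with 10.1 and 5.21, and at 51.928 and 51.900 Mb in fetal brain with 4.36 and 3.46. From +1.5 kb they lay at 51.920 and 51.880 Mb with 3.97 and 1.39, and from -6 kb at 51.917 and 51.895 Mb with 1.99 and 1.06. From the -470 kb site thymus had maxima at 51.875 and 51.904 Mb with 1.07 and 1.05, and ES cells at 51.887 Mb with 1.29, the highest of that library in the stretch. The flank maxima were at 51.856 Mb from the promoter in thymus, with 2.05, and at 51.731 Mb from the -470 kb site in ES cells, with 0.878. Neither of these had one of the other named maxima within 10 kb. The fetal brain promoter library, whose named maxima were all in the gene, had the highest value of its near flank, 1.92, at 51.855 Mb, 1 kb from the thymus maximum.

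The shape of the profiles along the stretch was compared by Spearman's rho over 51 to 53 bins, as a description, since bins share smoothing windows and all profiles read from near the promoter share a decay with distance. The 4 thymus libraries had rho of 0.704 to 0.804 among themselves, and the promoter library of fetal brain had 0.762 to 0.811 with them, so this likeness was not limited to thymus. From the promoter rho was 0.593 between thymus and ES cells, 0.765 between thymus and fetal brain, and 0.745 between ES cells and fetal brain. Within the gene alone rho was 0.886 between thymus and ES cells, 0.895 between thymus and fetal brain, and 0.963 between ES cells and fetal brain. Within the flank alone it was -0.06 for thymus and ES cells, 0.21 for thymus and fetal brain, and 0.31 for ES cells and fetal brain. The likeness of the promoter profiles thus lay in the gene, where all of them fall with distance. The -470 kb library of ES cells had the lowest likeness with the others, between 0.0353 and 0.326.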

How the data were processed

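The authors deposited, per sample, a text file of 4C signal in steps of 1000 bp with no header: 48 smoothing windows, each with a middle, a higher and a lower value. This deposited signal is treated as relative to the viewpoint. The build is mm9, per the submitters' processing notes, and the sources used here name no aligner, filter or read number.

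The viewpoint was placed at the median position of highest signal of its libraries. The 5 kb middle value was scaled to the mean of its library at distances above 10 kb. Log2 ratios were taken per 5 kb bin after adding 0.1, and bins past 2-fold were counted over the stretch and over all bins of the locus. O/E used an isotonic decay over both sides. Simulated data with a known fold in the stretch were used to check log2 ratios of the stretch less those of the rest of the locus. A far smaller value than 0.1 was added there, so the ratios as reported, which the added 0.1 shrinks, were not checked. The thymus-over-ES mean of the stretch was -1.98 with 0.1 added and -2.32 with 0.01. For O/E the simulated data checked only the mean over all positions, which the fit fixes in advance, so the O/E of a segment was not checked. Named positions are up to 3 local maxima per library at least 20 kb apart, and up to 3 bins per direction and comparison past 2-fold and not adjacent. The limits of the stretch and its segments are coordinates that use no measured value, but they, the comparisons and the rule for named positions were chosen with earlier results of these data known. Python 3.11.15, numpy 2.4.6, pandas 2.3.3, scikit-learn 1.9.0, scipy 1.17.1 and matplotlib 3.10.9 were used. The 11 alternatives tried were 3 other windows (2, 10 and 20 kb), O/E, no scaling, a scale over the shared span, a pseudocount of 0.01, 20 kb left out around the viewpoint, the lower and the higher window value, and 10 kb bins. Each library was its own group of 1, so no test was run.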

Additional observations from a re-analysis of the deposited data

Results flagged for a closer look

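The thymus-over-ES ratio of the gene had opposite signs from the 2 viewpoints read in both samples. In the 5' part of the gene the mean log2 ratio was 1.68 from the -470 kb site and -2.46 from the promoter, a difference of 4.13. In the 3' part it was 0.75 from the -470 kb site and -2.55 from the promoter, a difference of 3.30. With 1 library per group this difference was not tested. The viewpoints were read with different enzyme pairs, so viewpoint and enzymes cannot be told apart. Over 11 other settings the 5' part ran from 0.86 to 2.28 from the -470 kb site and from -3.54 to -1.75 from the promoter. The 3' part ran from 0.40 to 1.35 from the -470 kb site and from -2.93 to -0.02 from the promoter, the last with the lower window value. Among these settings, the scale over the shared span repeats the main values here and is no check.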

How the results depend on the processing

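Of 240 values recomputed for the comparisons and shares, 195 stayed within 1.5-fold of the reported value and 45 moved further. Of 264 recomputed segment means 50 moved further. No mean log2 ratio of at least 1 in size changed sign, but smaller ones did. The mean of the stretch was negative in 4 and positive in 7 settings for ES cells over brain. It was negative in 2 and positive in 9 from the -470 kb site and for +1.5 kb over promoter, and negative in 1 and positive in 10 for -6 kb. The mean of the stretch was lower in thymus than in ES cells and in fetal brain, from the promoter, under all 11 settings, from -2.33 to -0.78 and from -3.28 to -1.46. Among these settings, the scale over the shared span repeats the main values for libraries of 1 viewpoint, so it is no check there. Those repeats are among the 195 values that stayed. Without scaling, the means were -1.27 (thymus over ES cells), -3.28 (thymus over brain), -2.01 (ES cells over brain, with 50 bins lower and 0 higher), 0.68 (-470 kb, 1 bin lower) and 2.92 (-6 kb over promoter, 0 bins lower and 52 higher). With the lower window value they were -0.78 for thymus over ES cells (16 bins lower, 4 higher) and -0.68 for ES cells over brain (15 lower, 1 higher). That value left 4 bins lower from the -470 kb site, 10 from +1.5 kb and 13 from -6 kb, and put 38.5% of the +1.5 kb signal in the stretch. With the higher value, bins lower and higher were 0 and 0 for ES cells over brain and 6 and 7 from the -470 kb site, 30 were higher from -6 kb, 0 were higher for thymus over ES cells, and the ES share from -470 kb was 7.95%. Bins higher for thymus over ES cells were 0 with the 10 kb and 20 kb windows and with 10 kb bins, and 2 without scaling. For ES cells over brain 2 bins were lower with the 20 kb window and 1 with 10 kb bins. From the -470 kb site O/E gave 9 bins higher and 0 lower, the 0 being no check since the flank's expected signal is fitted on the flank itself, and a pseudocount of 0.01 gave 16 lower. For +1.5 kb the lower bins were 0 with both wider windows, 3 with O/E, 4 with the pseudocount of 0.01 and 1 of 25 with 10 kb bins. For -6 kb they were 0 with both wider windows and 3 with 20 kb left out, and 7 were higher with the 20 kb window. The cause of these moves was not tested. No paired analysis was possible because each group held 1 library and no test was run. Depth is unknown, stretches at a library's commonest value have no order, and nothing here measures the spread between animals or cultures.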
